A study of Arabidopsis thaliana with 6 samples.

Results

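Nuclear auxin signalling in Arabidopsis thaliana rests on a receptor family, a repressor family and a transcription factor family, and 50 of their genes were followed here among the 33323 loci of the table. They were chosen by name and locus, with no use of their values but with earlier results of these data known. They comprise 6 TIR1/AFB receptor genes, 29 Aux/IAA genes and 15 ARF genes (ARF1 to ARF11 and ARF16 to ARF19). A separate group of similar ARF genes around ARF12 was left out of the 50 and is described at the end. RNA came from whole seeds at 6 days after pollination, dissected by hand from siliques of self-pollinated plants. The groups were wild type (WT) Col-0 and DD25::IaaH in the Col-0 background, with 3 libraries each that the design text calls biological replicates. IaaH is a bacterial enzyme that releases auxin from indole-3-acetamide, and DD25 names the promoter. The labels give neither the cells in which the promoter is active nor the number of transgenic lines or plants behind a library.

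Auxin acts as a glue between a TIR1/AFB F-box protein and an Aux/IAA protein, which is then ubiquitinated by the SCF complex and destroyed. Until then the Aux/IAA protein holds an ARF, a factor that binds DNA at auxin-regulated genes, in a repressed state through a TOPLESS co-repressor. In the seed, auxin made after fertilisation is known to act on endosperm, seed coat and embryo, and many Aux/IAA genes are themselves auxin-induced in seedlings.

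The stretch that the receptor grips in an Aux/IAA protein is its degron, with the amino acid core glycine, tryptophan, proline, proline, valine. The coding letters GGNTGGCCNCCNGTN spell this core, and 11 of them are fixed. Read in frame, all 11 were present in 17 of 29 Aux/IAA genes and in no other gene, that is 17 of 27562 coding sequences (0.0617%). A further 6 Aux/IAA genes, IAA8 and IAA10 to IAA13 among them, matched 10 letters, and IAA31 matched 9. In IAA20, IAA30, IAA32, IAA33 and IAA34 the best window matched only 6 or 7 letters and may not be the site of a degron at all. The sequences below show the core in capitals for the 3 most abundant Aux/IAA genes and for IAA12 and IAA16, whose values are described further on. They are spliced coding sequence from RefSeq on TAIR10.1, and each spans an intron, so the interval is longer than the printed run.
IAA9 (chr5:26255003-26255142, plus strand, 11 letters): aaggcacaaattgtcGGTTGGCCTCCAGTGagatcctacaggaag
IAA16 (chr3:1289721-1290214, minus strand, 11 letters): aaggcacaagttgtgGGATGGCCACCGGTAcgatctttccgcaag
IAA8 (chr2:9637622-9637763, plus strand, 10 letters): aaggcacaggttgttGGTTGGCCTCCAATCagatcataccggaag
IAA12 (chr1:1240780-1241096, plus strand, 10 letters): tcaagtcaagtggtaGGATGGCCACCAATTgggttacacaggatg
IAA31 (chr3:6020776-6020917, minus strand, 9 letters): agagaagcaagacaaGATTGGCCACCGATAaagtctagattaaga

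Several receptors and ARFs are known targets of small RNAs, and the complementary stretches sort the genes into groups used below. Small RNAs are printed with bases 2 to 8 in capitals, except for the 21-base window of TAS3, the source of the small RNAs known as tasiR-ARF, which was picked because it had the fewest mismatches summed over ARF2, ARF3 and ARF4. In the gene stretches, capitals mark letters that pair and lower case marks mismatches. All lie within 1 coding exon, on TAIR10.1.
miR160a (chr2:16340282-16340302, plus strand): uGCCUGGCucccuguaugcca
ARF17 (chr1:29274189-29274209, plus strand): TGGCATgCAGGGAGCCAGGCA
ARF10 (chr2:12115741-12115761, plus strand): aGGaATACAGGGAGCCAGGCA
ARF16 (chr4:14704141-14704161, minus strand): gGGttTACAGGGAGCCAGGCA
TAS3 window (chr3:5862205-5862225, plus strand): uuucuugaccuuguaagaccc
ARF3 (chr2:14325941-14325961, minus strand): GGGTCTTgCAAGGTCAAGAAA
ARF4 (chr5:24309507-24309527, minus strand): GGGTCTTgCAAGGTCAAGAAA
ARF2 (chr5:24913262-24913282, plus strand): GGGTCTTgCAAGGTCAAGAAt
miR393a (chr2:16652111-16652132, plus strand): uCCAAAGGgaucgcauugaucc
TIR1 (chr3:23273727-23273748, minus strand): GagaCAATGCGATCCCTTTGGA
AFB2 (chr3:9870237-9870258, plus strand): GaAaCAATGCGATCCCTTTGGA
With at most 4 mismatches allowed, miR160a had a match in 3 of 27562 coding sequences, all of them printed here. The TAS3 window had one in 14, miR393a in 6, with TIR1, AFB1, AFB2 and AFB3 among them, and miR167a in 7, with ARF6 and ARF8 among them. A match is a likeness of letters and does not show that a transcript is cut.

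Across the whole table, depth rebuilt from the steps of the RPKM values was 8.949 to 17.79 M reads (M for mega) in WT and 6.495 to 10.75 M reads in DD25::IaaH. A floor of 3 reads on a gene of 1 kb was therefore 0.169 to 0.462 RPKM, and it covers counting error only. WT 1 and WT 2 stood apart: of 4837 annotated pseudogenes, 79.1% and 61.2% held reads there, and 23.3% to 33.9% did in the 4 remaining libraries. Of 8 endosperm marker genes 5 were higher and 0 lower in DD25::IaaH. The 8 summed to 38.8 to 48.0 in WT and 110 to 148 RPKM in DD25::IaaH. Most of that rise was PHE1, at 2.611 to 4.922 in WT and 61.34 to 98.44 RPKM in DD25::IaaH. ZOU, the highest of the 8 in WT, had means of 33.48 in WT and 28.76 RPKM in DD25::IaaH. ZOU, MEA and IKU2 overlapped between genotypes and were not called. The 7 embryo markers summed to 194 to 206 in WT and 159 to 189 RPKM in DD25::IaaH, with 1 lower, 0 higher and DRN at 0 in every WT library. Most of the embryo sum was LEC1, with means of 158.9 in WT and 148.2 RPKM in DD25::IaaH, which was not called. The 7 seed coat markers summed to 1580 to 1805 and 1577 to 1658 RPKM, with 2 higher and 1 lower. These near-equal sums hide opposite shifts, as BAN rose from a mean of 499.1 to 834.7 RPKM and TT10 fell from 577.6 to 259.3 RPKM. Pollen markers summed to at most 3.48 RPKM and markers of the fruit wall to at most 15.6 RPKM. The part of these shifts in the results below was not tested, and in whole seeds fewer cells of a type and less RNA per cell cannot be told apart. The native DD25 gene, AT3G04540, held reads in 1 library of each group only.

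Of the 50 genes, 42 reached a mean of 0.5 RPKM and were tested, namely all 6 receptors, 21 of 29 Aux/IAA genes and all 15 ARFs. In DD25::IaaH seeds the Aux/IAA gene IAA31 was higher, ARF4 and ARF9 were lower, and 39 genes did not pass (limma, adjusted p under 0.05). The shares among all 20880 genes tested were 8.25% higher and 6.72% lower, 15% in either direction, so 3 calls among 42 are no excess. At an unadjusted p under 0.05 there were 8 of the 42. For such counts, here and below, the share over all tested genes is not given and is at least the 15% called after adjustment. The WT and DD25::IaaH values did not overlap for 13 of the 42, with 4 genes higher and 9 lower, where all tested genes gave 33.3%, with 18.4% higher and 14.9% lower. The median log2 fold change, DD25::IaaH minus WT on log2(RPKM + 0.5), was -0.16 over the 42 and 0.03 over all tested genes. By family it was -0.03 for receptors, -0.01 for Aux/IAA genes and -0.35 for ARFs.

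**Figure D1:**
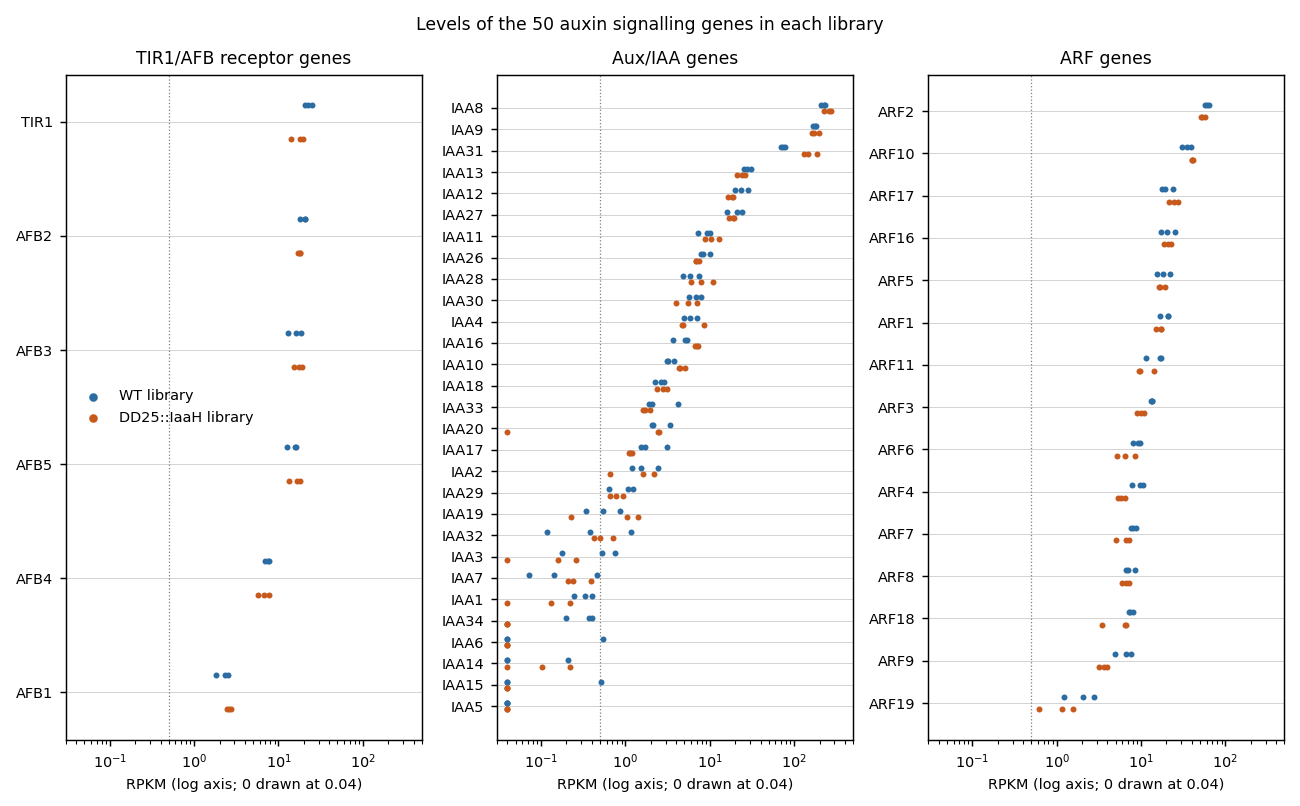
RPKM on a log axis of the 50 genes in each of the 6 libraries, 1 panel per family, with WT libraries in blue, DD25::IaaH libraries in orange, values of 0 drawn at 0.04 and the filter of 0.5 RPKM as a dotted line. Among Aux/IAA genes IAA8, IAA9 and IAA31 lie above 50 RPKM in every library, whereas 8 others have means under 0.5 RPKM.

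The receptor genes were expressed at close to the same summed level in both genotypes, with 80.3, 81.8 and 86.4 in WT 1 to 3 and 82.1, 81.1 and 68.8 RPKM in DD25::IaaH 1 to 3. RPKM is per gene length, so levels can be set side by side. By mean level the order was TIR1, AFB2, AFB3, AFB5, AFB4 and AFB1, from 20.01 down to 2.42 RPKM. TIR1, the founding auxin receptor, had 20.8, 25.0 and 22.6 in WT 1 to 3 and 19.3, 18.2 and 14.1 RPKM in DD25::IaaH 1 to 3. All WT libraries lay above all DD25::IaaH libraries. Its log2 fold change was -0.41 ± 0.15 (SE), with an interval of -0.76 to -0.06 and an adjusted p of 0.118, so TIR1 did not pass.

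AFB2, close to TIR1 in function, had 20.6, 17.9 and 20.8 in WT and 17.1, 18.0 and 17.8 RPKM in DD25::IaaH. AFB3, of the same group, had 12.9, 15.9 and 18.3 in WT and 19.2, 17.3 and 15.4 RPKM in DD25::IaaH. Their groups overlapped, with adjusted p of 0.449 and 0.628. TIR1 stood at 1.62, 1.57 and 1.24 times AFB3 in WT and at 1.01, 1.05 and 0.915 times AFB3 in DD25::IaaH. These ratios did not overlap between genotypes, but their difference was not tested and neither gene passed. AFB1, known for fast auxin responses in roots, was the lowest receptor gene at 2.32, 2.55 and 1.82 in WT and 2.44, 2.76 and 2.61 RPKM in DD25::IaaH. Its groups also overlapped.

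AFB5 and AFB4, the branch through which the herbicide picloram acts, differed from each other in level but not detectably by genotype. AFB5 had 16.2, 12.7 and 15.8 in WT and 16.4, 18.2 and 13.3 RPKM in DD25::IaaH. AFB4 had 7.54, 7.79 and 6.998 in WT and 7.65, 6.66 and 5.66 RPKM in DD25::IaaH. In no receptor gene did the test pass, 1 of 6 had an unadjusted p under 0.05 and limma voom on whole reads also called 0. In the order of levels, AFB2, AFB3 and AFB5 overlapped from each to the next in both genotypes, whereas AFB4 lay below AFB5 and above AFB1 in all libraries. TIR1 lay above AFB2 across the WT libraries and overlapped it in DD25::IaaH.

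The Aux/IAA family was uneven, with 3 genes at 100 RPKM or more, 3 from 10 to 100, 10 from 2 to 10, 5 from 0.5 to 2 and 8 below 0.5 RPKM. IAA8, which acts in flower and root development, was the most abundant at 228, 207 and 234 in WT and 226, 260 and 276 RPKM in DD25::IaaH. IAA9, its close relative, had 178, 183 and 167 in WT and 197, 162 and 170.5 RPKM in DD25::IaaH. Both overlapped between genotypes, and neither passed, with log2 fold changes of 0.18 (interval -0.10 to 0.47, adjusted p 0.372) and 0.00 (-0.27 to 0.27, adjusted p 0.999). Together they held 64.9%, 65.9% and 66.7% of the family's in WT and 61.4%, 63.1% and 58.4% in DD25::IaaH.

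IAA31 (AT3G17600), an Aux/IAA whose divergent degron is shown above and whose protein is known to be degraded more slowly than those with the full core, was the gene that changed most clearly. It had 78.6, 74.7 and 69.9 RPKM in WT 1 to 3, from 1167, 558 and 561 reads. In DD25::IaaH 1 to 3 it had 148, 131 and 189 RPKM, from 1327, 712 and 1433 reads. The lowest DD25::IaaH library stood well above the highest WT library. The fold was 2.07 on the log2(RPKM + 0.5) scale (interval 1.64 to 2.60), with a log2 fold change of 1.05 ± 0.15 (SE, adjusted p 0.0016). The call held in all 16 alternative settings, including each left-out library, with adjusted p from 0.000628 to 0.0479. The highest of these came without WT 1 and WT 2 together, where the log2 fold change was 1.13.

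IAA31 alone held 12.6%, 12.6% and 11.6% of the family's RPKM in WT and 21.5%, 19.6% and 24.6% in DD25::IaaH. The summed Aux/IAA level was 626, 592 and 601 in WT and 688, 668 and 766 RPKM in DD25::IaaH, without overlap. Without IAA31 the sums were 547, 517 and 531 in WT and 541, 537 and 577 RPKM in DD25::IaaH, and they overlapped. The gap between genotypes in the family's total was thus held mainly by this gene. The genes with all 11 degron letters summed to 200 to 218 in WT and 196.5 to 229 RPKM in DD25::IaaH.

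**Figure D2:**
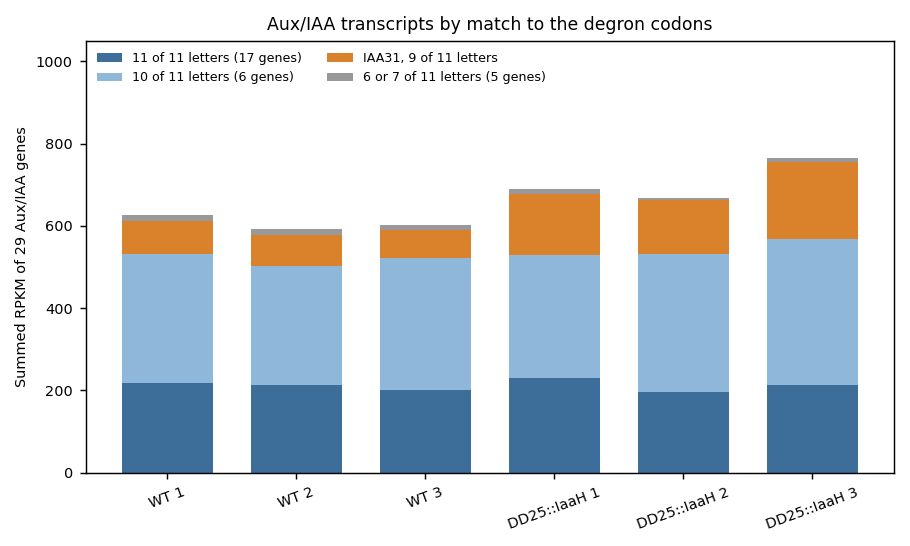
Stacked bars of the summed RPKM of the Aux/IAA family in each library, split by how many of the 11 degron letters the gene carries. The segment of IAA31 is 69.9 to 78.6 in WT and 131 to 189 RPKM in DD25::IaaH, while the segments with 11 and with 10 letters overlap between genotypes.

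The relatives that, like IAA31, lack a complete core were not called with it. IAA30 had 6.92, 7.80 and 5.69 in WT and 7.13, 4.00 and 5.56 RPKM in DD25::IaaH, with an adjusted p of 0.446. IAA20 had 2.15, 3.41 and 2.07 in WT and 2.41, 0 and 2.52 RPKM in DD25::IaaH, with no read in DD25::IaaH 2 and a log2 fold change of -0.87 (adjusted p 0.416). IAA31 was 9.58 to 12.3 times IAA30 in WT and 20.7 to 33.9 times IAA30 in DD25::IaaH. Of the 5 genes with 6 or 7 letters, 4 were tested and 0 were called, 0 at an unadjusted p under 0.05 and 0 with voom.

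Of the genes along the chromosome around IAA31, the gene on one side, BSH, a subunit gene of SWI/SNF chromatin remodellers, had means of 15.3 in WT and 17.7 RPKM in DD25::IaaH, with separate groups (adjusted p 0.342). HYH, a bZIP factor of light signalling on the other side, had means of 5.91 and 7.29 RPKM (adjusted p 0.914). RBL14, the gene after HYH, was called higher like IAA31, at 7.36 against 11.55 RPKM (log2 fold change 0.63, adjusted p 0.0371). The RBL14 call held without WT 3 and was lost without each other library, with adjusted p of 0.0859 to 0.12. IAA31, ARF4 and ARF9 all lie in locus ranges, on chromosomes 3, 5 and 4, that are bounded by genes near-absent in DD25::IaaH, meaning at least 3 RPKM in every WT library and less than the lowest WT value divided by 15 in every DD25::IaaH library. These ranges are long, from AT3G16400 to AT3G61020, AT5G48412 to AT5G66053 and AT4G01593 to AT4G37320, and a further range lies on chromosome 2. Inside all ranges 8.74% of 7216 tested genes were higher and 11.9% lower, and outside 7.99% of 13664 were higher and 3.99% lower. The near-absent genes that define the ranges are themselves counted inside, which adds to the lower share there by construction. The ranges hold 16 of the 42 tested genes, and the 26 outside them held no call, with 5 at an unadjusted p under 0.05 (TIR1, IAA10, IAA12, IAA16 and ARF3) and 0 called with voom. Whether position had a part in the 3 calls was not tested.

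Other Aux/IAA genes showed smaller differences, and of the remaining 20 tested 0 passed, with 3 at an unadjusted p under 0.05 (IAA16, IAA12 and IAA10) and 0 called with voom. IAA16, which in mutant form dampens auxin and abscisic acid responses, had 5.32, 3.67 and 5.05 in WT and 6.76, 6.98 and 7.22 RPKM in DD25::IaaH. Its groups were separate, with a log2 fold change of 0.55 ± 0.18 (SE), an interval of 0.13 to 0.96 and an adjusted p of 0.0833. IAA10, which acts with ARF9 in the suspensor of the embryo, had 3.18, 3.74 and 3.07 in WT and 4.38, 5.16 and 4.38 RPKM in DD25::IaaH. It too lay higher in every DD25::IaaH library and did not pass, with an adjusted p of 0.171.

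IAA12 (BODENLOS), the repressor that restrains ARF5 in the early embryo, had 28.7, 20.2 and 23.7 in WT and 16.6, 18.6 and 18.6 RPKM in DD25::IaaH. All DD25::IaaH libraries lay below all WT libraries, with a log2 fold change of -0.41 ± 0.15 (SE, adjusted p 0.115). With IAA13, its closest relative, it held 9.47%, 8.12% and 8.24% of the family's in WT and 5.92%, 5.95% and 5.84% in DD25::IaaH. ARF5 itself (MONOPTEROS), needed for the embryonic root, had 18.1, 15.5 and 21.99 in WT and 16.9, 19.3 and 16.4 RPKM in DD25::IaaH. Its groups overlapped, with a log2 fold change of -0.07, an interval of -0.42 to 0.29 and an adjusted p of 0.834. The ratio of ARF5 to IAA12 was 0.631, 0.767 and 0.928 in WT and 1.01, 1.04 and 0.883 in DD25::IaaH, with overlap.

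Some Aux/IAA genes familiar from seedlings were near or below the detection floor in these seeds. IAA1, IAA3 (SHY2), IAA5, IAA6, IAA7 (AXR2), IAA14 (SLR), IAA15 and IAA34 had means under 0.5 RPKM and were not tested. IAA5 had no read in any library, and IAA6 and IAA15 were above 0 in WT 1 only. IAA3 had 11, 8 and 2 reads in WT and 2, 2 and 0 in DD25::IaaH, and its RPKM values overlapped. Pooled, its 21 reads in WT and 4 in DD25::IaaH gave a depth-adjusted ratio of 0.263, with a counting interval of 0.0656 to 0.779. That interval leaves out the spread between libraries, and most of the WT reads came from WT 1 and WT 2. IAA34 had 4, 1 and 2 reads in WT and 0 in each DD25::IaaH library, which is within a floor of 3 reads per library for all but WT 1. IAA17 (AXR3), at 3.104, 1.54 and 1.72 in WT and 1.11, 1.13 and 1.21 RPKM in DD25::IaaH, and IAA26, with means of 8.73 and 7.03 RPKM, were separate and lower but did not pass (adjusted p 0.198 and 0.276).

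**Figure D3:**
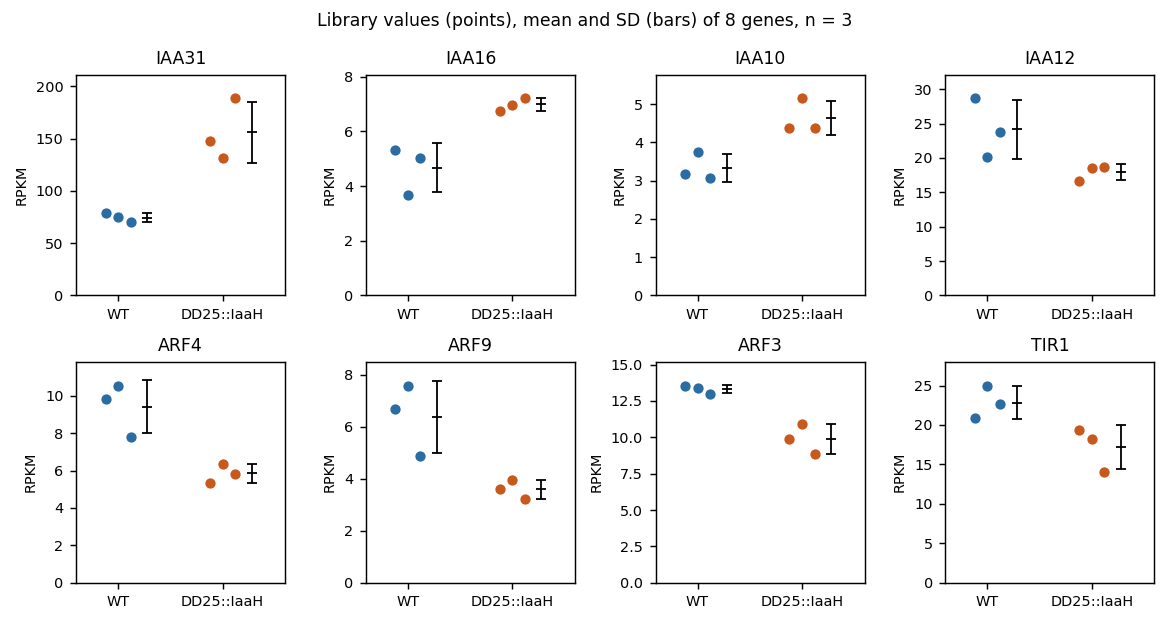
RPKM in each library (points) with mean and SD (bars, n = 3) for IAA31, IAA16, IAA10, IAA12, ARF4, ARF9, ARF3 and TIR1, every axis starting at 0. In each of the 8 genes the WT and DD25::IaaH points do not overlap, and only IAA31, ARF4 and ARF9 passed the test.

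The ARF family was more even, with 8 genes from 10 to 100 RPKM, 6 from 2 to 10 and ARF19 at 1.56 RPKM. ARF2 (MEGAINTEGUMENTA), a repressor that limits seed size through the integuments, led with 57.1, 63.6 and 61.1 in WT and 53.0, 57.2 and 51.6 RPKM in DD25::IaaH. Its groups met by a margin of less than 1 RPKM, and it did not pass (log2 fold change -0.17, adjusted p 0.358). Of the 15 ARFs 12 had log2 fold changes below 0 and 3 above, and over the alternative settings 11 to 13 were below 0. The share of all tested genes below 0 is not given here, and their median was 0.03. The size of the ARF median depended on single libraries. It was -0.353 with all of them, -0.179 without DD25::IaaH 3 and -0.454 without DD25::IaaH 2. The family's summed level was 244, 253 and 263 in WT and 233, 245 and 213 RPKM in DD25::IaaH, with overlap.

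ARF4 (AT5G60450), which with ARF3 gives lower-side identity to leaves and floral organs, fell. It had 9.84, 10.6 and 7.82 in WT and 5.35, 6.38 and 5.82 RPKM in DD25::IaaH, from 545, 294 and 234 against 179, 129 and 165 reads. The groups did not overlap. The log2 fold change was -0.63 ± 0.17 (SE), a fold of 0.644 (interval 0.493 to 0.842), with an adjusted p of 0.038. The call held without WT 3 and was lost without each other library, with adjusted p of 0.0639 to 0.142, and without WT 1 and WT 2 together the log2 fold change was -0.39 with an adjusted p of 0.468. The gene before ARF4 on the chromosome is AGL62, which delays cell formation in the endosperm and rose from 0.659 to 4.30 RPKM (adjusted p 0.00091). The gene after it, AT5G60460, fell like ARF4, from 124 to 85.9 RPKM (log2 fold change -0.52, adjusted p 0.0285). The AT5G60460 call held without WT 3 and was lost without each other library, with adjusted p of 0.0589 to 0.114.

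ARF9 (AT4G23980), which acts in the suspensor to keep its cells from turning embryonic, also fell. It had 6.69, 7.59 and 4.87 in WT and 3.601, 3.96 and 3.21 RPKM in DD25::IaaH, from 338, 193 and 133 against 110, 73 and 83 reads. WT 3 was the lowest WT library for both ARF4 and ARF9, yet it stood above every DD25::IaaH library. The log2 fold change was -0.73 ± 0.21 (SE), a fold of 0.601 (interval 0.434 to 0.831), with an adjusted p of 0.045. The call held without WT 3 and was lost without each other library, with adjusted p of 0.076 to 0.164, and without WT 1 and WT 2 together the log2 fold change was -0.40 with an adjusted p of 0.524. Its partner IAA10 lay in the opposite direction without passing, as given above.

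ARF3 (ETTIN), which patterns the gynoecium and senses auxin without an Aux/IAA partner, had 13.6, 13.4 and 13.0 in WT and 9.86, 10.9 and 8.87 RPKM in DD25::IaaH. Its WT values were tight and all above DD25::IaaH, with a log2 fold change of -0.42 ± 0.14 (SE, adjusted p 0.0802). ARF3 and ARF4 carry the same 21 letters opposite the TAS3 window, each with 1 mismatch, and ARF2 has 2 mismatches. The summed level of ARF2, ARF3 and ARF4 was 80.5, 87.6 and 82.0 in WT and 68.3, 74.5 and 66.3 RPKM in DD25::IaaH, without overlap. Of the 3 genes 1 was called lower, and their median log2 fold change was -0.42.

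In the miR160 group no gene was lower in every DD25::IaaH library. ARF10, which with ARF16 shapes the root cap and seed dormancy, had 35.4, 30.4 and 39.6 in WT and 40.0, 41.6 and 39.9 RPKM in DD25::IaaH, and its groups were just separate (adjusted p 0.325). ARF16 had 17.2, 20.4 and 25.0 in WT and 22.7, 18.9 and 20.7 RPKM in DD25::IaaH (adjusted p 0.996). ARF17, needed for pollen wall formation, had 17.5, 19.1 and 24.1 in WT and 27.7, 24.7 and 21.4 RPKM in DD25::IaaH (adjusted p 0.288). WT 3 was the highest WT library for all of them. Of the 3 genes 0 were called, 0 at an unadjusted p under 0.05 and 0 with voom, and their median log2 fold change was 0.21. Their summed level was 70.17, 69.85 and 88.68 in WT and 90.35, 85.15 and 81.92 RPKM in DD25::IaaH, with overlap. Their share of the ARF total, which also depends on the level of the other ARFs, was 28.8%, 27.7% and 33.7% in WT. In DD25::IaaH it was 38.7%, 34.7% and 38.5%, without overlap. ARF10 was 2.88 to 5.07 times ARF4 in WT and 6.52 to 7.47 times ARF4 in DD25::IaaH.

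**Figure D4:**
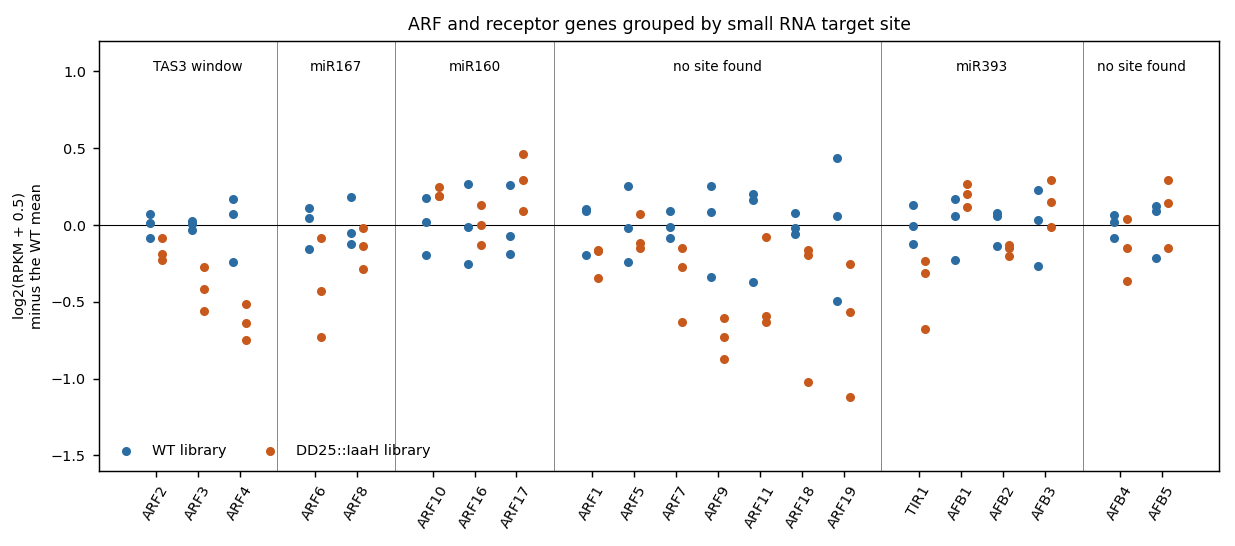
Each library's log2(RPKM + 0.5) minus the mean of the WT libraries, for the 15 ARF and 6 receptor genes grouped by the small RNA with a match in the gene (TAS3 window, miR167a, miR160a or miR393a) or by having none within 4 mismatches, with WT in blue and DD25::IaaH in orange. ARF3 and ARF4 are lower in every DD25::IaaH library and ARF2 overlaps, whereas ARF16 and ARF17 overlap and ARF10 is just separate and higher. ARF7, ARF9 and ARF18, with no site found, and TIR1, with a miR393a site, are also lower in every DD25::IaaH library.

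The ARFs classed as activators, ARF5, ARF6, ARF7, ARF8 and ARF19, all had log2 fold changes below 0 and a median of -0.35, and 0 of the 5 were called, at an unadjusted p under 0.05 or with voom. ARF6, which with ARF8 drives flower maturation, had 9.70, 9.22 and 7.95 in WT and 6.49, 8.38 and 5.19 RPKM in DD25::IaaH, with overlap and an adjusted p of 0.201. ARF8, which also holds back fruit growth before fertilisation, had means of 7.40 and 6.61 RPKM. ARF7 and ARF19 act together in lateral root formation. ARF7 was separate and lower, at 8.09 against 6.28 RPKM (adjusted p 0.228), and ARF19 had 2.02 against 1.103 RPKM (adjusted p 0.258).

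Among the other ARFs, ARF11 had 16.9, 17.3 and 11.5 in WT and 9.77, 14.2 and 9.499 RPKM in DD25::IaaH, with overlap and an adjusted p of 0.217. ARF18 was separate and lower, with DD25::IaaH 3 at 3.46 RPKM against 6.54 to 8.00 RPKM in the other 5 libraries (adjusted p 0.252). ARF1, the first ARF to be isolated, had means of 19.5 and 16.5 RPKM and overlapped.

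**Figure D5:**
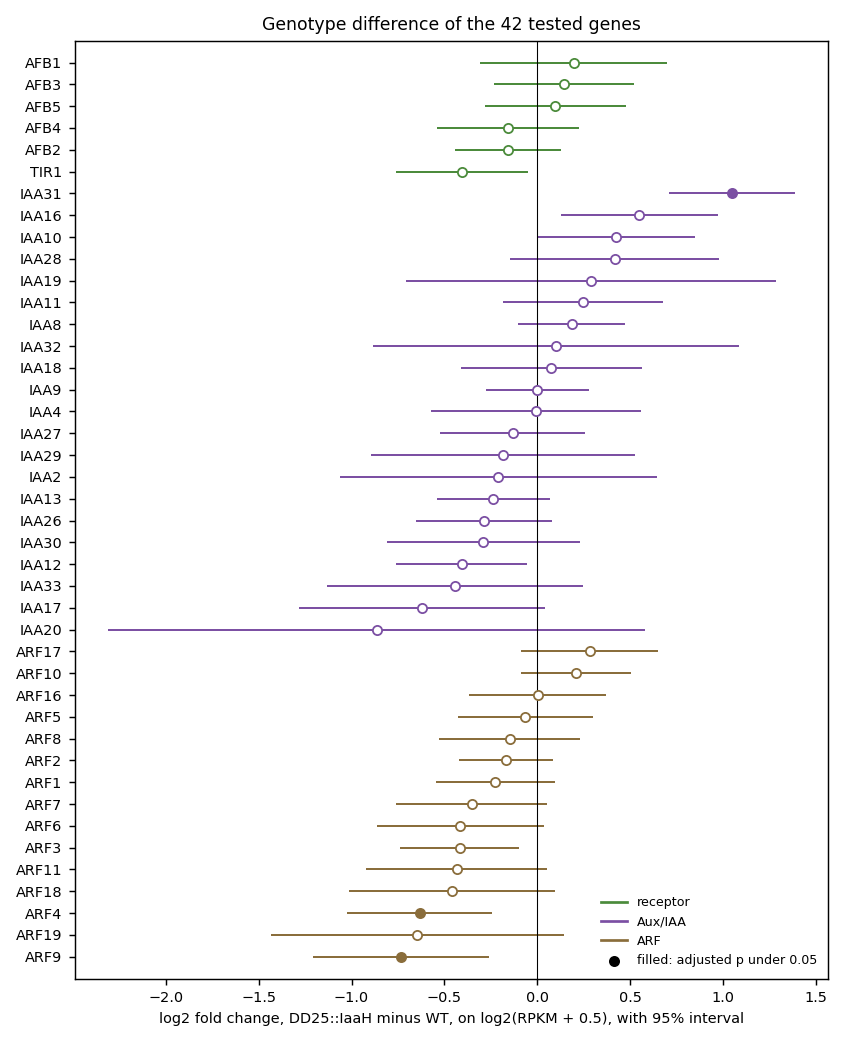
Log2 fold change, DD25::IaaH minus WT on log2(RPKM + 0.5), with its 95% interval for the 42 tested genes, by family. Filled points, IAA31 at 1.05, ARF4 at -0.63 and ARF9 at -0.73, passed the test, and 12 of the 15 ARFs lie below 0.

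The loci that give rise to the small RNAs are seen here only as polyadenylated precursors. TAS3 had 9.92, 8.38 and 3.41 in WT and 3.04, 4.55 and 5.10 RPKM in DD25::IaaH, with WT 1 and WT 2 high and WT 3 within the DD25::IaaH range (adjusted p 0.303). MIR167A had 12.3, 6.13 and 2.77 in WT and 3.09, 3.07 and 3.83 RPKM in DD25::IaaH, with WT 1 and WT 2 high and WT 3 the lowest of the 6 (adjusted p 0.270). Of 12 such loci 5 were tested and 0 were called, 0 at an unadjusted p under 0.05 and 0 with voom. MIR167C, below the filter, had 3, 1 and 1 reads in WT and 0 in each DD25::IaaH library, all within the floor of 3 reads. When the filter was dropped, limma gave it an adjusted p of 0.00651, which rests on these few reads. Reads of mature small RNAs were not analysed here.

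Promoters were searched on both strands, from 250 bases before to 50 after the annotated start, for the letters TGTCTC and TGTCGG, known as ARF binding elements. TGTCTC was present in 14 of 50 genes against 14.1% of 27562 promoters, and TGTCGG in 8 of 50 against 5.12%. IAA31 held 1 copy of TGTCTC and ARF3 held 2, while ARF4 and ARF9 held neither element in this window.

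Of 10 tested genes for SCF subunits and their regulators 1 was higher and 0 lower, beside 8.25% and 6.72% of all genes. Their median log2 fold change was 0.20, against 0.03 over all tested genes. This was RBX1, the RING subunit, at 82.1, 93.6 and 88.3 in WT and 117, 119 and 119 RPKM in DD25::IaaH (log2 fold change 0.43, adjusted p 0.0278). The RBX1 call held without WT 3 and was lost without each other library, with adjusted p of 0.0586 to 0.0942. Of 8 genes for TOPLESS co-repressors and chromatin partners 0 were called, 0 at an unadjusted p under 0.05 and 0 with voom, and their median log2 fold change was -0.01. TPL itself had means of 26.6 and 25.7 RPKM.

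Of 21 genes that report auxin signalling 15 were tested, 1 was higher and 2 were lower, beside 8.25% and 6.72% of all genes. At an unadjusted p under 0.05 there were 7 of the 15. The share of all tested genes at that threshold is not given and is at least 15%, so whether 7 is an excess cannot be told. Voom called 4 of the 15 and 3439 of all 20880 genes, and the median log2 fold change was -0.04. GH3.4, which conjugates auxin to amino acids, was at 0.345, 0 and 0 in WT and at 6.90, 4.72 and 2.94 RPKM in DD25::IaaH. Its relative GH3.3 was at 9.32, 9.97 and 9.14 in WT and at 5.40, 4.29 and 5.19 RPKM in DD25::IaaH. Another relative, GH3.2, was at 10.9, 16.6 and 5.71 in WT and at 3.32, 3.54 and 2.32 RPKM in DD25::IaaH. Both GH3.2 and GH3.3 fell, with adjusted p of 0.0144 and 0.00668. GH3.2 lost its call without WT 1 (0.0549) and without DD25::IaaH 3 (0.0608), and neither was called once WT 1 and WT 2 were both left out. There GH3.2 had a log2 fold change of -0.82, against -1.602 with all libraries (adjusted p 0.266), and GH3.3 had -0.83, against -0.87 (adjusted p 0.160).

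The ARF12 group, a cluster of very similar ARF genes on chromosome 1 known mainly from seeds, was near the floor, and its reads may be split between copies. None of its 8 genes reached the filter. Their summed level was 1.09, 0.42 and 0 in WT and 3.02, 2.72 and 2.104 RPKM in DD25::IaaH, without overlap. ARF14 had 1 read in WT and 31 in DD25::IaaH, a depth-adjusted ratio of 42.8 with a counting interval of 7.13 to 1743. ARF22 had 4 and 22 reads, a ratio of 7.59 (2.58 to 30.3). These were the largest ratios of the group. ARF15, with 12 and 11 reads, had a ratio of 1.26 (0.506 to 3.13), and ARF21, with 8 and 7 reads, had 1.21 (0.373 to 3.81). The interval of ARF20 also spanned equal levels (0.883 to 21.5), and those of ARF12 (2.23 to 12.7) and ARF13 (1.26 to 10.9) did not. These intervals cover counting error only, and when the filter was dropped the adjusted p was 0.0146 for ARF14 and 0.0522 for ARF22.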

How the data were processed

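Per the labels' protocols, polyadenylated RNA was sequenced as paired 125-base reads, and the submitters' processing notes name TopHat2 2.1.0 as a tool and TAIR10 as the build. The values the authors deposited are RPKM, already scaled for gene length and library size, and no counting tool or strand setting is given in the sources used here. All 50 loci matched RefSeq TAIR10.1 by identifier, from which the printed sequences and coordinates were read. Whole reads were rebuilt from the RPKM steps for 100% of the 31475 loci above 0, within 0.01 reads or a wider margin at high counts. At the RefSeq exon length 9175 loci (29.15%) gave whole reads. For the others a length that gave whole reads was searched for, so the 100% is no check on the read counts. Genes whose mean reached 0.5 RPKM were fitted on log2(RPKM + 0.5) by limma 3.58.1 under R 4.3.3, with a variance trend and a genotype term. Tests were two-sided, with Benjamini-Hochberg adjustment over all 20880 genes, and intervals are 95%. The p-values set the genotype difference against the spread between the 3 libraries of each group. In that spread each gene's variance is drawn toward the trend over all tested genes. Variation beyond these libraries is not covered. The members, lists, tests and near-absent locus ranges were chosen with earlier results of these data known. Library values are given for called genes, in each family for the 3 uncalled genes with the smallest adjusted p and the 3 highest means, and for a fixed set. The neighbours of IAA31 and ARF4, and genes given by group means, were picked after their values were seen. So were other genes outside this rule, among them IAA3, IAA17, IAA34, TAS3, MIR167A, MIR167C, ARF14 and ARF22. Of the 50 genes 16 overlap another annotated gene, and 0 of the 3 called ones do. The fit was tested on simulated data. In 16 alternatives the pseudocount, filter, scaling, variance model, pairing, test and libraries were changed. With the filter dropped, genes below 0.5 RPKM were also fitted.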

Additional observations from a re-analysis of the deposited data

How the results depend on the processing

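IAA31 was called in all 16 alternatives. ARF4 and ARF9 were both lost, leaving 0 lower calls among the members, without the filter (adjusted p 0.0665 and 0.0872), with the replicate block (0.0755 and 0.0623) and when WT 1 and WT 2 were both left out (0.468 and 0.524). In those settings limma gave 6, 5 and 0 members lower at an unadjusted p under 0.05. Leaving out 1 library at a time gave 0 to 2 lower members, and voom gave 2. ARF3, TIR1, IAA16, IAA12 and IAA10 kept their direction and stayed uncalled throughout. The count of calls over all genes was 1063 without WT 1 and WT 2 together and 1912 to 4133 with 1 library left out. In the other signalling lists the higher calls, 2 in the reported fit, were 1 under quantile scaling, without the variance trend, with the replicate block and without WT 1 and WT 2 together, 1 to 2 with 1 library left out, and 3 without the filter and with voom. The lower calls, also 2, were 0 without WT 1 and WT 2 together, where 2 had an unadjusted p under 0.05, 3 without the filter and 1 to 6 with 1 library left out. The cause of these shifts was not tested. Same-numbered libraries did not deviate together, with correlations of -0.08, -0.03 and -0.10, so the replicate block, which gave 2429 calls over all genes, pairs samples by number only. Quantile scaling made 48% of all calls higher, against 55.1%. Depth limits the 8 untested members and the ARF12 group.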
